A study of Drosophila melanogaster with 4 samples.

Results

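Broad domains of trimethylated lysine 4 of histone H3 (H3K4me3) were examined in white prepupae of Drosophila melanogaster, the immobile stage at the onset of metamorphosis. The domains were chosen by their width in the authors' peak list. A domain was any single peak of 5000 bp or more on 2L, 2R, 3L, 3R, 4 or X, and 323 of the 7743 peaks in the list met this rule. An evenly spaced run of 26 peaks near the base of 2L, from 21416946 to 21543724, was left out. None of those 26 peaks reached 5000 bp (the widest measured 4589 bp), so the omission removed 0 domains and only took these peaks out of the comparison set of 6896 other peaks on the same sequences. The 323 domains made up 4.47% of the 7219 arm peaks outside the run, a share that the width rule fixes.

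The series holds 2 libraries immunoprecipitated with a rabbit polyclonal antibody to H3K4me3 and 2 libraries of input DNA. All came from white prepupae of the strain Y cn bw sp, whose listed alleles are y[1] and oc[R3.2], next Gr22b[1], Gr22d[1] and cn[1], then CG33964[R4.2] with bw[1] and sp[1], and finally LysC[1], lab[R4.2] and MstProx[1] along with GstD5[1] and Rh6[1]. Each peak has a start and an end on FlyBase release 5, and a score that the peak caller of the authors gave it. Values of single libraries are not part of the list, and how the libraries were combined in it is not given. Replicate error, depth and input background therefore could not be set beside a domain, and no test was made. The values below describe 1 list.

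H3K4me3 is laid down by methyltransferases of the COMPASS family, in the fly mainly Set1. It typically forms a short block on the nucleosomes just downstream of an active promoter, and demethylases such as Lid remove it. In mammals, unusually wide blocks of the mark are known to cover genes that define a cell's identity, where transcription is steady. Whole prepupae hold many cell types, so a low score from few cells that carry the mark and one from little mark in each cell cannot be told apart. In the same way, a single wide block and narrower blocks that differ between cell types cannot be told apart.

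The domains measured from 5003 to 16763 bp, with a median of 6318 bp (quartiles 5516 and 7723 bp). Of these, 188 reached 6000 bp, 67 reached 8000 bp and 18 reached 10000 bp. They covered 2211 kb, which was 18.1% of the DNA under arm peaks, while the 1859 peaks from 2000 bp to under 5000 bp, called mid-width here, covered 43.8%. No break in the widths separated the domains from the peaks below them. Within 100 bp above the bound lay 17 domains, and within 100 bp below it lay 19 other peaks. Just inside the bound were peaks of 5003 bp on 2R (14042693 to 14047695, score 372), 5009 bp on X (16692450 to 16697458, score 379) and 5013 bp on 2R (19859842 to 19864854, score 423). Just outside it were peaks of 4994 bp on 2R (12737897 to 12742890, score 415), 4993 bp on 2R (15714129 to 15719121, score 343) and 4988 bp on X (20060664 to 20065651, score 335).

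Broad domains carried high scores, though not the highest. Their median score was 370 (quartiles 309.5 and 437), against 98.7 (20.6 and 241) for all other peaks and 284 (206 and 361) for the mid-width peaks. Of the 323 domains, 293 (90.7%) scored at or above 262, the upper quartile of the arm peaks, where 25.1% of all arm peaks lie. The same held for 57.9% of the mid-width peaks. Width and score come from the same peak call, so a high score is not independent of the width that chose the domains. Of the highest-scoring arm peaks, domains made up 3 of the 10 and 28 of the 100. That was a minority, but above their share of all arm peaks, 4.47%. The leading pair of scores belonged to narrower peaks, of 1696 bp on 3L (19825812 to 19827507, score 629) and 3312 bp on 3R (5460058 to 5463369, score 625).

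**Figure D1:**
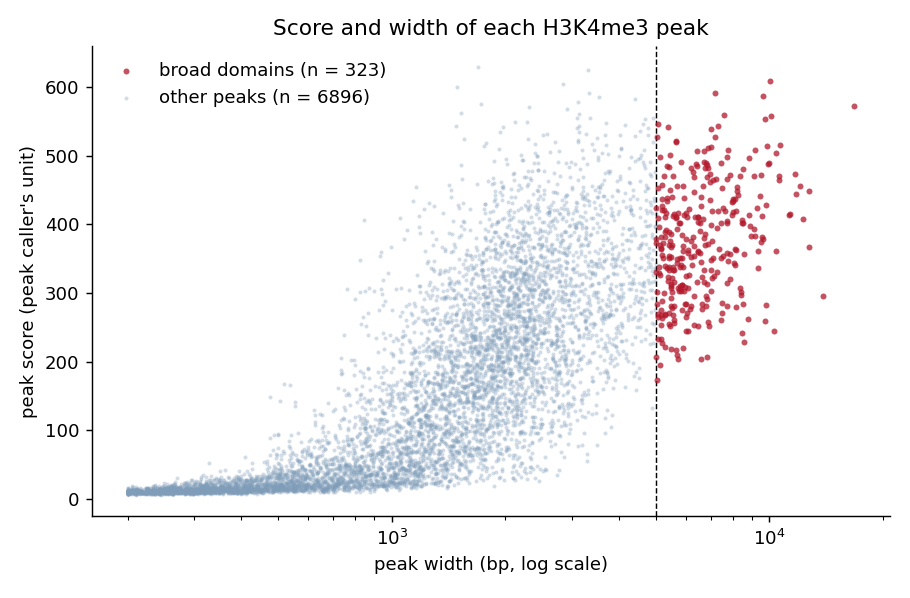
Score (peak caller's unit) against width (bp, log scale) of each arm peak outside the run, with 323 broad domains in red and 6896 other peaks in blue, and the 5000 bp bound as a dashed line. The domains start at a score of 173, while the highest score of the arms, 629, stands left of the bound.

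At the bound itself the score made no step. The median was 344 for domains of 5000 to 5999 bp and 345 for other peaks from 4000 bp to under 5000 bp. Above it the median was 381 at 6000 to 7999 bp, 402.5 at 8000 to 9999 bp and 452 for the 18 domains of 10000 bp or more. Within the domains score and width were loosely related, with a Spearman's rho of 0.287 over 323 domains and from 0.199 on 2R to 0.365 on 3L within single arms. For the mid-width peaks rho was 0.292. The points share 1 peak call and neighbouring peaks are not independent, so these coefficients are descriptions.

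Score per kb of width, a ratio with width below the line, was lower in wider domains. Its median was 55.1 per kb for broad domains, 98.4 for mid-width peaks and 70.5 for all other peaks. It was highest, at 108 per kb, for peaks of 2000 to 2999 bp, and it was 62.8 at 5000 to 5999 bp, 54.9 at 6000 to 7999 bp, 44.8 at 8000 to 9999 bp and 37.3 at 10000 bp or more. Peaks under 500 bp, with a median score of 12.6, had a score per kb of 43.6, close to that of the 8000 to 9999 bp domains.

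**Figure D2:**
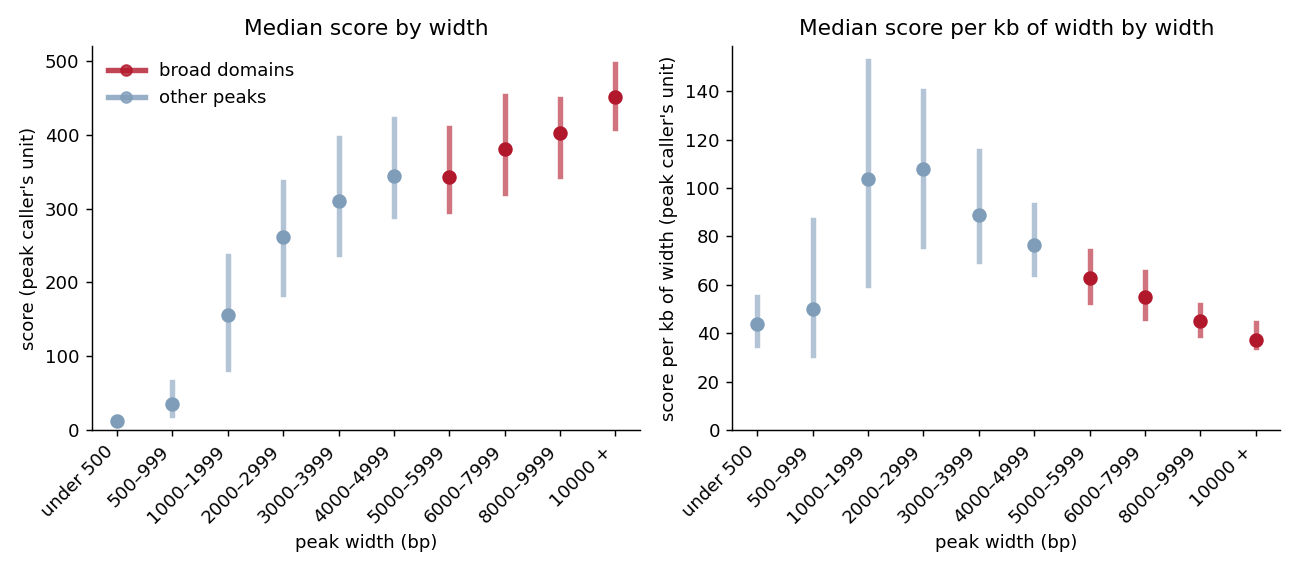
Median score (left) and median score per kb of width (right), in the peak caller's unit, by width class in bp, with bars from the 25th to the 75th percentile over peaks, broad domains in red and other peaks in blue. The score runs on across the 5000 bp bound at 344 just above it and 345 just below, and the score per kb is 108 at 2000 to 2999 bp and 37.3 at 10000 bp or more.

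The score per kb also varied from domain to domain, and since width is its denominator, wide domains tend to low values by construction. The highest value lay on 2R at 8643273 to 8648355, with a score of 546 over 5083 bp, or 107 per kb. It was followed by a domain on X at 19413295 to 19418330 (527 over 5036 bp, 105 per kb) and another on 3L at 11157455 to 11162832 (542 over 5378 bp, 101 per kb). At the other end stood the widest domain of 2R, at 10038359 to 10052247, where 13889 bp scored 296, or 21.3 per kb. A domain of 10253 bp on 2R at 13452191 to 13462443 scored 245 (23.9 per kb), and one of 9719 bp on 3R at 19591040 to 19600758 scored 259 (26.6 per kb). The highest and the lowest score per kb differed 5.05-fold, with a width of 5083 bp under the first and 13889 bp under the second.

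The lowest scores among the domains were not low within the list. The lowest was 173 on X at 546645 to 551676 (5032 bp), and 60.3% of all arm peaks scored below it. Next came 196 on 2L at 11120617 to 11125735 (5119 bp) and 203 on 3R at 21305235 to 21310968 (5734 bp). These were picked after their values were seen. In all, 30 domains (9.29%) scored under 262, and their widths had a median of 5712 bp and a maximum of 10253 bp. The 25 domains scoring 500 or more had a median width of 7190 bp. The share with a peak within 1 kb was the same for these groups, 80.0% in each.

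Among the domains named for each large arm, the widest and the highest-scoring shared a member only on X and 3L. The widest of the whole list, 16763 bp on X at 6178645 to 6195407, also had the highest score of that chromosome, 572. Behind it on X came 11309 bp at 2621624 to 2632932 (score 416) and 11251 bp at 1756508 to 1767758 (score 414), while the second score among the domains of X, 544, belonged to 7326 bp at 18271988 to 18279313. On 3L the domain at 16570877 to 16580999 was likewise first in width (10123 bp) and in score among domains (557). It was followed in width by 9552 bp at 2368799 to 2378350 (score 412) and 9495 bp at 2256421 to 2265915 (score 472), which neighbour each other with 102.9 kb free of peaks between them.

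On the remaining arms the widest domain was not the one with the highest score. On 3R the widest, 12240 bp at 17851597 to 17863836, scored 409, and the highest domain score, 609, lay over 10061 bp at 14848369 to 14858429. Domains of 10640 bp at 255680 to 266319 (score 515) and 10592 bp at 18182389 to 18192980 (score 470) were next in width on 3R, and 5669 bp at 2900537 to 2906205 was next in score (522). On 2L the widest, 12750 bp at 564050 to 576799, scored 366, against 592 for the top-scoring domain of 7190 bp at 10728980 to 10736169. Also on 2L were 10436 bp at 13371599 to 13382034 (score 504), 9813 bp at 8374402 to 8384214 (score 429) and 7180 bp at 13827957 to 13835136 (score 527). On 2R the widest domain, which also had the lowest score per kb, scored 296, against 587 for 9640 bp at 4781026 to 4790665. Other leading domains of 2R were 12705 bp at 20483700 to 20496404 (score 448), 12016 bp at 14048092 to 14060107 (score 456) and 7569 bp at 16897380 to 16904948 (score 559).

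Arms 2R and 3R held more than their share of domains. Together they carried 172 of the 323 domains (53.3%) and 43.4% of the arm peaks. Arm 2R had 79 domains, 3.74 per Mb between its first and last peak and 5.62 per 100 peaks, and 3R had 93, or 3.33 per Mb and 5.39 per 100 peaks. The values were 50 domains on 2L (2.18 per Mb, 4.03 per 100 peaks), 51 on X (2.28 per Mb, 3.74 per 100 peaks) and 50 on 3L (2.04 per Mb, 3.56 per 100 peaks). An arm has no replicate, so the spread that these differences should be set against is unknown.

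Chromosome 4, small and largely heterochromatic, held 0 domains among 76 peaks. A count of 0 in 76 allows a share of up to 3.95% (3 counts of 76). The share was 4.47% over all arm peaks and ran from 3.56% on 3L to 5.62% on 2R among the large arms. The limit of 3.95% covers counting error only and takes the peaks as independent, which neighbouring peaks are not. It lies below the share over all arm peaks, but above the shares of 3L and X (3.74%). Whether chromosome 4 differs from the other arms therefore cannot be told from this count. Its widest peaks were 3240 bp at 1048503 to 1051742 (score 266), 2925 bp at 1337626 to 1340550 (score 283) and 2879 bp at 1324644 to 1327522 (score 291).

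X, of which males have a single copy, carried 0.807 times as many domains per Mb as the 4 large autosome arms pooled (2.28 per Mb on X and 2.82 on the autosome arms). This ratio was 1.05 against 2L alone and 1.12 against 3L alone, and 0.608 and 0.683 against 2R and 3R. Its direction thus depends on the arm that X is set against. Per 100 peaks X had 3.74 domains, below the 4.03 of 2L and above the 3.56 of 3L, so against 2L the direction also depends on the scale. The domains of X did not score low. Their median score was 383 (quartiles 333 and 438), against 368 (307 and 437) for domains of the large autosome arms, whereas the other peaks of X had a median of 76.0 and those of the large autosome arms 105. Median widths were 6217 bp for domains on X and 6382 bp for those on the large autosome arms. Among single arms the median domain width ran from 6012 bp on 2R to 7032 bp on 2L, and the median score from 353 on 3L to 383 on X.

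**Figure D3:**
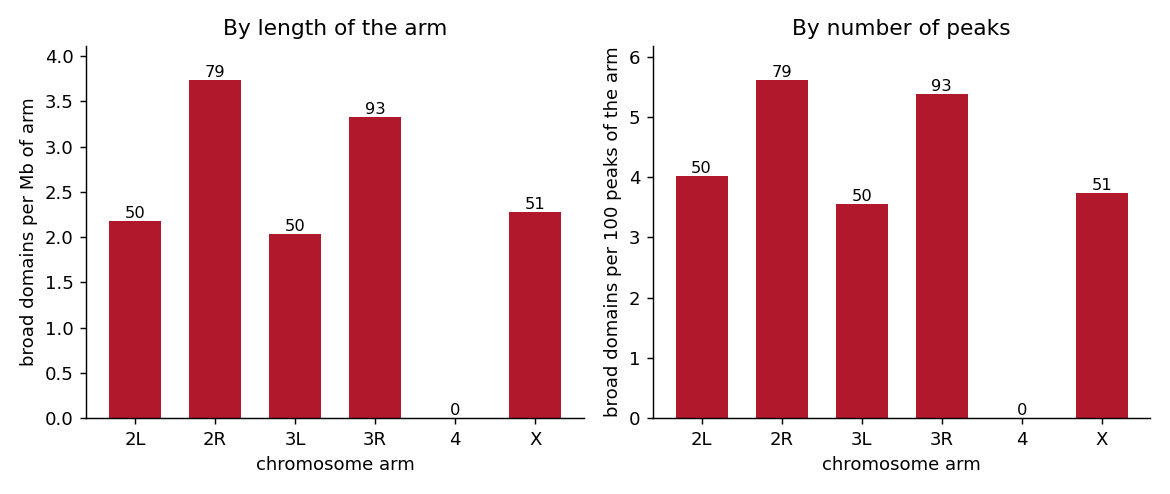
Broad domains per Mb of each chromosome arm (left) and per 100 peaks of the arm (right), with the number of domains above each bar. Arms 2R (79) and 3R (93) stand above 2L (50), 3L (50) and X (51) on either scale, and chromosome 4 has 0.

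Pooled over the large arms, the domains were most frequent in the part at the outer end, though not on every arm. The span between the first and the last peak of each arm was cut into 10 equal parts, counted from its centromeric end. This division was made after the data were seen. The outermost part held 63 domains among 891 peaks, or 7.07 per 100 peaks. The innermost part held 12 among 471, or 2.55 per 100, and the fourth part 20 among 641, or 3.12 per 100. The outermost part lay above the value of the whole arm in 5 of 5 large arms, between 6.58 per 100 peaks on 3R and 8.15 on 2R. The innermost part lay below it in 5 of 5, from 0 on 2R and 3L to 4.28 on 3R. Within 2 Mb of the centromeric end of this span, 10 of 392 peaks were domains (2.55 per 100, against 4.64 on the rest of these arms). Of these 10, 8 were among the 163 such peaks of 3R (4.91 per 100, against 5.435 on the rest of 3R). The outermost part was the highest of its arm only on 3L and X. On 2L the ninth part was higher (7.09 against 6.62), on 3R the eighth (7.27), the ninth (6.94) and the second (6.93) were, and on 2R the second was, at 9.52. The change along the arm was thus not even.

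**Figure D4:**
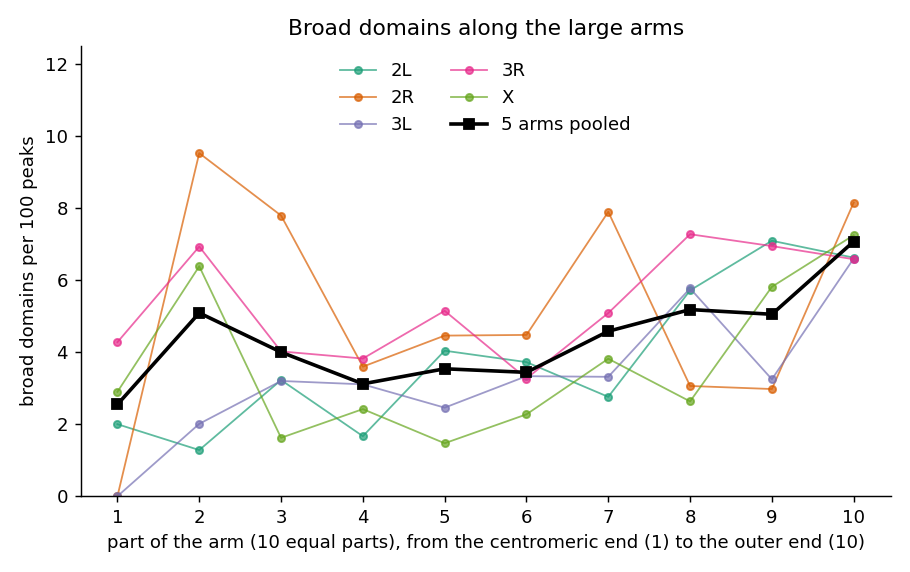
Broad domains per 100 peaks in each of 10 equal parts of the 5 large arms, from the centromeric end (1) to the outer end (10). Each arm is taken between its first and its last peak, with coloured lines for single arms and the black line for all 5 pooled. The pooled value is 2.55 in the innermost and 7.07 in the outermost part, where all 5 arms lie between 6.58 and 8.15.

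On a scale of 1 Mb the domains were unevenly spread. Windows of 1 Mb on the 5 large arms, counted from base 1 and without chromosome 4, held a median of 2 domains, and 22 of 121 windows held none, 7 of which had 50 or more peaks. The 13 windows with 6 or more held 96 domains (29.7%) and 15.5% of the peaks of these arms. The 22 windows with none held 10.9% of the peaks. Both sets were chosen by their domain counts, so a gap between their shares of domains and of peaks follows from the choice. The fullest window was on X at 1000001 to 2000000, with 11 domains among 96 peaks, followed by 2R at 19000001 to 20000000 (10 among 93), 2R at 3000001 to 4000000 (9 among 94) and 2R at 5000001 to 6000000 (8 among 93). In contrast, the window on 3L at 21000001 to 22000000 held 0 domains among 73 peaks, and that on X at 13000001 to 14000000 held 0 among 72. The longest stretch between successive domains, 3039 kb on 3L at 12530372 to 15569623, contained 151 narrower peaks. These windows were picked after their values were seen.

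Successive domains of an arm were a median of 184 kb apart (quartiles 42.8 and 434 kb), and 57 of the 318 distances were 20 kb or shorter. Grouped by gaps of 20 kb or less, 220 domains stood alone, 38 groups held 2, 6 held 3, 1 held 4 and 1 held 5. The group of 5 lay on X at 1756508 to 1820113, with widths from 5107 to 11251 bp and scores from 333 to 436. Also on X, at 1351511 to 1377340, 3 domains of 6762, 9635 and 9112 bp scored 482, 379 and 394. Only 117 and 204 bp separated them, so that domains covered 98.8% of 25.8 kb. The group of 4 was on 2R at 4984489 to 5034703, where domains scoring 284 to 439 covered 52.1% of 50.2 kb.

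The other groups of 3 lay on 2R, 3L and 3R. On 2R at 14036334 to 14060107, domains of 5145, 5003 and 12016 bp scored 369, 372 and 456 and covered 93.2% of 23.8 kb. A looser group on 2R at 19836856 to 19872470 had scores from 271 to 437. On 3L at 12506501 to 12530371 the scores ran from 206 to 402 and the widths from 5018 to 6452 bp. On 3R at 7040890 to 7063286 the scores were nearly equal, from 409 to 417, and at 11169704 to 11198930, also on 3R, they ran from 282 to 336. Over the 8 groups of 3 or more, the difference between the highest and the lowest score of a group ran from 7.27 to 196.

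In 13 places a pair of domains lay 1 kb or less apart, with gaps of 54 to 911 bp and joint spans of 10.9 to 18.95 kb. In 12 of these nothing lay between the 2 domains, and in 1 a small peak did. The shortest gap, 54 bp, was on 3R between 21299157 to 21305180 (6024 bp, score 265) and 21305235 to 21310968 (5734 bp, score 203). On 2L a gap of 105 bp separated 8178 bp at 4965608 to 4973785 (score 363) from 8808 bp at 4973891 to 4982698 (score 414). The widest domain of 3R had a neighbour of 5305 bp at 17846030 to 17851334, which scored 221 against its 409. The pairs given here were picked after their values were seen, and whether such a pair is counted as 1 domain or 2 is set by the peak call.

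Most domains were not alone. A peak lay within 1 kb of 262 of the 323 domains (81.1%), against 68.6% of the other peaks, 74.9% of the mid-width peaks and 69.2% of all arm peaks. It was also 74.9% for the 810 other peaks that scored between 309.5 and 437, the middle range of the domains. The share was 77.0% at 5000 to 5999 bp, 81.8% at 6000 to 7999 bp, 89.8% at 8000 to 9999 bp and 83.3% for the 18 domains of 10000 bp or more. Just below the bound it was 76.8% at 4000 bp to under 5000 bp and 76.4% at 3000 to 3999 bp. The share thus made no step at the bound. Among arms the share for domains ran from 74.0% on 3L to 87.1% on 3R. Edges and gaps come from the same call as the widths, so these shares are not independent of the rule.

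The median gap from a domain to its nearest neighbour was 310 bp, against 388 bp for the other peaks. It was 322 bp for mid-width peaks and 328 bp for those in the same score range. At the bound itself the gap did not shorten, with 267 bp at 4000 bp to under 5000 bp and 360 bp at 5000 to 5999 bp. Above that it was 306 bp at 6000 to 7999 bp, 258 bp at 8000 to 9999 bp and 381 bp at 10000 bp or more. The upper part of the distribution differed more. The nearest peak was over 10 kb away for 12 domains (3.72%), against 9.50% of the other peaks and 6.78% of mid-width peaks. A wider surround showed the same order, with a mean of 6.48 other peaks within 20 kb of a domain, 5.50 for the other peaks and 5.81 for mid-width peaks.

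**Figure D5:**
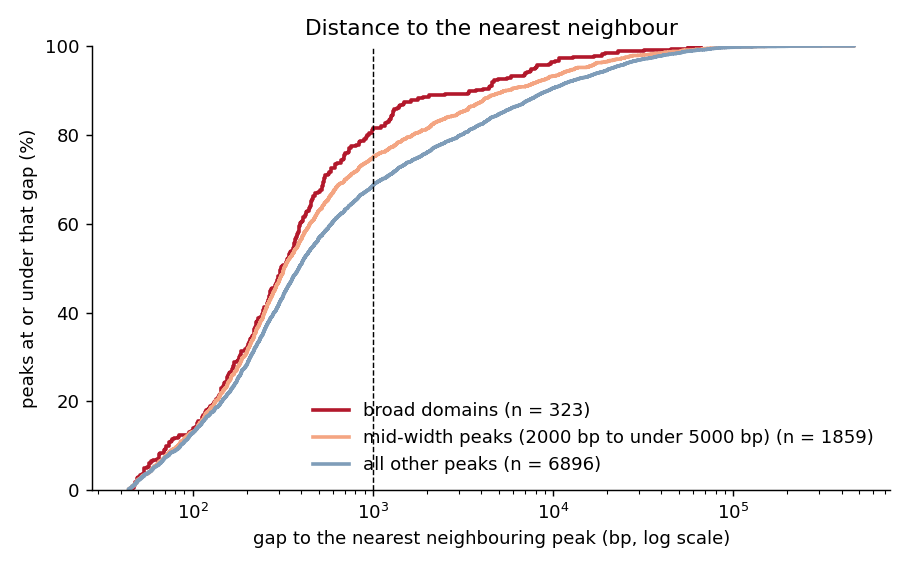
Share of peaks (%) whose gap to the nearest neighbouring peak (bp, log scale) is at or under the value on the axis, for 323 broad domains (red), mid-width peaks (orange) and all other peaks (blue), with 1 kb as a dashed line. At 1 kb the curves stand at 81.1%, 74.9% and 68.6%.

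The peaks beside a domain were mostly of ordinary width and lower score. Of the 646 sides of the 323 domains, 358 had a neighbour within 1 kb, and 96 domains (29.7%) had one on each side. The median of these neighbours was 1646 bp in width and 152 in score, and 137 of them (38.3%) scored under 50. Beside all other peaks the median score of such neighbours was 139.8 and 36.7% scored under 50, so the share beside domains was near that of the list. Beside mid-width peaks, 29.4% of such neighbours scored under 50, with a median of 187, and beside other peaks in the same score range 28.7% did, with a median of 184. The neighbour outscored the domain on 38 of the 358 sides (10.6%), and outscored the peak on 16.3% of sides for peaks in the same score range. When only neighbours scoring at least 112, the median of the arms, were counted, the median gap was 690 bp for domains and 1555 bp for all other peaks. It was 634 bp for mid-width peaks and 625 bp for those in the same score range.

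A few domains stood far from any other peak. On 3L the domain at 9960207 to 9967051 (6845 bp, score 206) had its neighbours 66.7 and 248 kb away. On 3R the domain at 3070702 to 3077185 (6484 bp, score 252) had 56.4 kb on one flank and 56.3 kb on the other. Also on 3R, the domain at 25756471 to 25763934 (7464 bp, score 351) had 51.0 and 45.3 kb. All 3 scored below the median of the domains, 370. The genes under the domains are not named and no sequence is shown, since the peaks are on release 5 and the only gene table used here is on release 6.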

How the data were processed

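The authors deposited 1 peak list for the series, on FlyBase release 5 with MACS as its source, per the file headers and source column. The submitters' processing notes name BDGP5, MACS2, BWA and CASAVA in its versions 1.7.0.2 and 1.7.0.3. Their settings, pooling of replicates and use of the input are not given in the sources used here. Of the deposited values, the score has no named scale, and start and end positions are the others. The score is the authors' own and was used only to describe, rank and filter peaks within the list. Library depth is unknown.

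Width was end minus start plus 1, and gaps counted the bases between neighbouring edges, with the run on 2L kept as possible neighbours. Arm spans ran from the first to the last peak. Functions for gaps, joining and neighbour counts were tested on simulated data. Tables were made with pandas 2.3.3 and numpy 2.4.6 in Python 3.11.15, intervals with scipy 1.17.1 and plots with matplotlib 3.10.9. The domains named were the 3 widest and 2 highest-scoring of each arm, the 3 extremes of score per kb, the 3 on either side of the bound, the 3 most isolated and all groups of 3 or more within 20 kb. The domains and these rules were chosen with earlier results of these data known. Alternatives changed the width bound, the comparison peaks, the gap, joining and the scale for X.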

Additional observations from a re-analysis of the deposited data

How the results depend on the processing

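Of 37 alternative values for 6 results, 3 reversed, 18 moved and 16 lay near the reported value, that is within its 95% binomial interval or, for counts, within 1.5 times it. The interval takes peaks as independent, which they are not, and serves here only as a yardstick for sorting the values, not as a test. The number of domains was 534 at 4000 bp or more, 188 at 6000, 67 at 8000 and 680 after peaks 500 bp or less apart were joined, and 323 with the run kept. The median score exceeded that of the other peaks by 271.6, by 295.7 at 6000 bp, 304.8 at 8000 bp and 86.3 against mid-width peaks alone. The score per kb differed by −15.4, and by −6.65, −19.98 and −26.0 with bounds of 4000, 6000 and 8000 bp, −43.3 against mid-width peaks and −19.1 after joining. The nearest gap differed by −78 bp from that of all other peaks, and by −865 bp with strong neighbours alone. It differed by −12 bp from mid-width peaks and by −18 bp from peaks of like score. With strong neighbours alone, the 690 bp of domains was longer than the 634 bp of mid-width peaks and the 625 bp of peaks of like score. Those comparisons are not among the 37. From midpoint to midpoint the difference from all other peaks reversed to 2358 bp, a distance that includes part of each peak's width. The share with a neighbour within 1 kb, 81.1%, was 67.2% at 500 bp, 88.5% at 2000 bp and 88.1% for peaks of 8000 bp or more. The ratio of X to the large autosome arms reversed, per Mb, to 1.05 against 2L and 1.12 against 3L. It lay between 0.608 and 0.932 in the other settings. The causes were not tested. Comparisons of gaps with like peaks, of X with single arms or after joining, and of the share at other bounds were added after the data were seen. No paired analysis was possible because single libraries have no values here, and no replicate could be left out. What depth limits could not be measured.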

Other observations

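Broad stretches of H3K4me3 also formed from peaks under 5000 bp. With peaks 500 bp or less apart joined, the arms outside the run held 4703 stretches, and 680 of these measured 5000 bp or more. Of the 680, 304 contained a broad domain and 376 did not. The stretches with a domain had a median width of 8545 bp, 2 peaks at the median and a median highest score of 382, and 106 of them were a domain alone. Those without a domain had a median width of 6690 bp, 3 peaks at the median and a median highest score of 364. The widest stretch with a domain lay on X at 1756508 to 1786625, joined 8 peaks with 3 domains over 30118 bp, and overlapped the group of 5 domains. The widest without one, also on X, at 509065 to 531927, joined 11 peaks over 22863 bp, none of them 5000 bp wide. Chromosome 4 had 0 joined stretches of 5000 bp or more, against 680 among the 4703 stretches of all arms. Its own number of stretches is not given here, so this 0 has no share beside it.

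In the evenly spaced run of 2L, 20 of 26 peaks were 4000 bp or wider and scored 209 to 297, just under the bound in width. Joined at gaps of 1 kb or less, 18 peaks of the run formed 1 stretch of 88.5 kb at 21451029 to 21539562. Outside the 6 arms, 0 of 498 peaks reached 5000 bp, where 4.47% of the arm peaks outside the run did. The widest of the 498, on XHet at 60057 to 63153, measured 3097 bp and scored 274.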
